A study of Capra hircus with 6 samples.

Results

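Lysosome genes were taken as the rows of the count table whose pathway description, split at its separators, holds exactly the KEGG name Lysosome. There were 121 such genes among the 15944 listed, and each was placed by its known function in 1 of 7 classes. These were 16 cathepsins and other proteases, 18 glycosidases, 8 sulfatases, 13 lipases, nucleases, phosphatases and activator proteins, 25 membrane proteins, 11 proton pump subunits, and 30 sorting adaptors and receptors. For 8 genes listed under a LOC number, the class came from the ortholog symbol that the table gives beside the number. The name covers more than the inside of the lysosome, because clathrin and the AP-1, AP-3 and AP-4 adaptors also work at other membranes. The lysosomal enzymes FUCA1 and HYAL1 carry other pathway names in the table and are therefore not among the members.

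The counts came from secondary hair follicle dermal papilla cells (SHF-DPCs), the fibroblast-like cells at the base of the follicles that make cashmere. They were grown as wild type primary cultures from the scapular skin of adult Albas cashmere goats (Capra hircus) 3 years old, and used at passages 4 to 7. The control group (3 libraries) received culture medium, and the ATRA-treated group (3 libraries) received all-trans retinoic acid (ATRA), a ligand of the retinoic acid receptors made from vitamin A, at 100 µM for 24 h. The cells were isolated from 3 separate animals, and each group holds 3 biological replicates, although the labels do not tie a library to an animal.

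Lysosomes are acidic compartments in which hydrolases break down proteins, glycans, lipids and nucleic acids taken up from outside or delivered by autophagy. Most of these enzymes are made in the endoplasmic reticulum, marked with mannose 6-phosphate in the Golgi, and carried onward by mannose 6-phosphate receptors with GGA, AP-1 and clathrin coats. A proton pump, the V-ATPase, acidifies the lumen, and transporters in the membrane export the products. In fibroblasts the same enzymes also turn over collagen, proteoglycans and glycolipids of the matrix and cell surface, and the transcription factors TFEB, TFE3 and MITF control many of the genes.

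Total counts lay between 35532339 and 38012771 per library, and no pair of libraries within a group agreed within sampling noise (chi-square over its degrees of freedom, 5.01 to 18.4). The dermal papilla and fibroblast markers ACTA2, VIM and COL1A1 were abundant in the control group, while CORIN, ALPL and PROM1, also used as dermal papilla markers, were at 0 or 1 count in every library. The paper identified its cells by staining for the proteins α-SMA and CD133, products of ACTA2 and PROM1, and RNA counts do not measure protein. All 8 tested genes of the 12 dermal papilla and fibroblast markers fell with ATRA, and the list summed to between 55520 and 58400 CPM in control libraries and between 2450 and 2550 CPM in ATRA libraries. That change of the markers moved with every result given here, and its part in the lysosome values was not tested. Markers of keratinocytes summed to at most 0.709 CPM in any library. Values are normalized CPM, that is, counts relative to the library's total, scaled by edgeR's TMM method, and a log₂ fold change (log₂FC) compares ATRA with control. Where a gene has values of both groups in a row, the control libraries come first. The test was the quasi-likelihood F test of edgeR (two-sided), and p-values were adjusted by the Benjamini-Hochberg method across 12588 genes left by the expression filter. A gene is said to rise or fall where its adjusted p was under 0.05. In bulk RNA, fewer cells of a type and less RNA per cell cannot be told apart.

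Enzymes and activators of the lysosome lumen were more often lower than higher with ATRA, whichever of TMM and library size scaled the libraries. Of the 121 genes, 113 passed the expression filter, of which 41 rose and 56 fell with ATRA and 16 did not pass the test. Among all genes tested, 40.9% rose and 38.7% fell, and 79.7% did either. Past 2-fold, 9 members rose and 22 fell, against 13.7% and 17.3% of all genes tested, 31.0% in either direction. Of the members tested, 5 with few counts passed the filter through 1 group, and without them 39 rose and 53 fell, 7 and 19 past 2-fold. The median log₂FC of the members was -0.13, beside 0.0376 over all genes tested. The 51 tested proteases, glycosidases, sulfatases, lipases and activators had a median of -0.64, with 36 lower and 11 higher. The 62 tested membrane, pump and sorting genes had a median of 0.16, with 20 lower and 30 higher. With library size only, the first group counted 26 lower and 18 higher, and the second 6 lower and 46 higher. In 93 of the 113 tested members the ATRA libraries lay on 1 side of all control libraries, 39 above and 54 below, where 41.2% and 39.0% of all genes tested did so, 80.1% in either direction.

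The counts in each direction depend on the scaling. TMM factors were 0.842 to 0.851 in the control libraries and 1.17 to 1.20 in the ATRA libraries, and with library size only the median log₂FC of all genes was 0.52 in place of 0.0376. With that scaling 62.9% of all genes were higher and 22.7% lower, and the members counted 64 higher and 32 lower. Changing the scaling shifts all genes alike, so the distance of 0.17 by which the members' median lay below that of all genes is the same under both. Of the 22 members that fell past 2-fold, 12 also did so with library size only, and of the 9 that rose past 2-fold, 9 did. Because that scaling shifts all genes upward, the rises were bound to stay past 2-fold in size. No member past 2-fold changed direction under any alternative. Of the members called lower, 15 with small changes turned higher with library size only, and their value under that scaling is given beside them where they are named. Some others kept their direction but were no longer called with that scaling, ATP6V0D1, SMPD1, AP1M1 and AP3B1 among them.

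**Figure D1:**
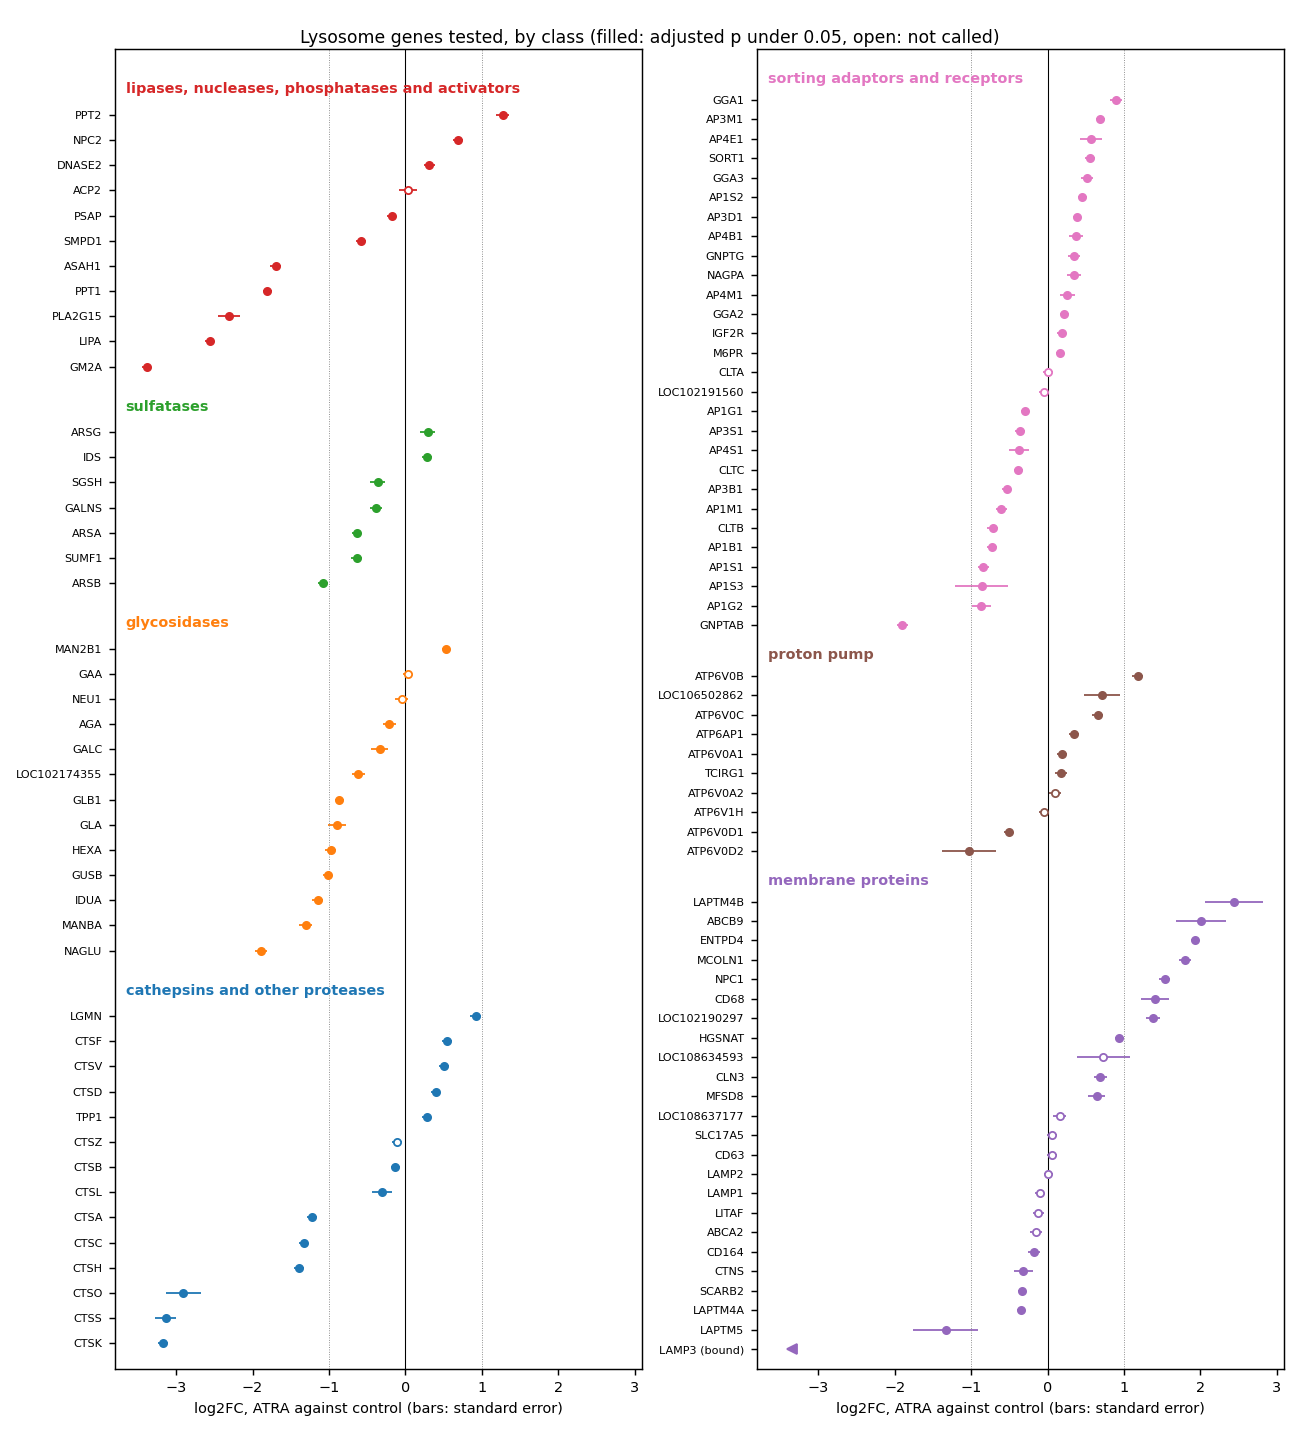
Log₂FC of 107 of the 113 tested lysosome genes, with ATRA against control on the horizontal axis and the genes in rows, grouped in 7 classes. Points are fitted values with the standard error as bars, filled where the adjusted p was under 0.05 and open where it was not, and LAMP3 is drawn as an arrowhead at its bound. Glycosidases lie almost wholly left of 0, from -1.89 for NAGLU to 0.54 for MAN2B1, while the membrane protein genes ENTPD4, MCOLN1 and NPC1 lie at 1.53 to 1.93, and called members between -0.38 and 0 turn with library size only.

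**Figure D2:**
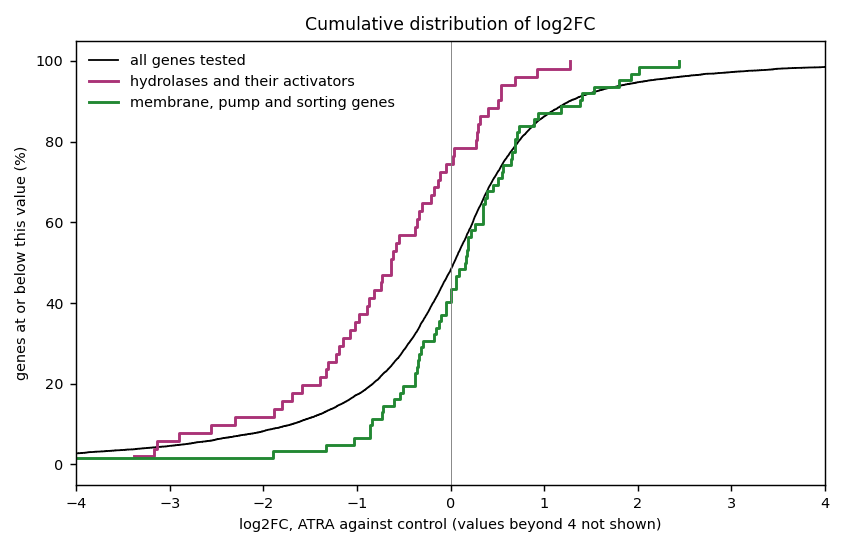
Cumulative share of genes (vertical axis, %) at or below each log₂FC (horizontal axis), for all 12588 genes tested, the 51 tested hydrolases and activators, and the 62 tested membrane, pump and sorting genes, with values beyond 4 not drawn. The hydrolase curve is shifted left of the others over most of its range, with a median of -0.64 beside 0.16 for the membrane, pump and sorting genes.

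Among the proteases, the collagen-degrading cathepsin K (CTSK) and CTSS, CTSO, CTSH, CTSC and CTSA fell past 2-fold, while LGMN and the aspartic cathepsin CTSD rose. Of 16 protease genes, 14 were tested, 5 rose and 8 fell, but with library size only 7 were higher and 6 lower. CTSW and NAPSA had 9 counts or fewer in every library and were not tested. The median log₂FC of the class was -0.22, or 0.26 with library size only, and 6 of the 8 that fell did so by more than 2-fold.

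CTSK, the cysteine protease that cuts fibrillar collagen, had 845, 848 and 819.7 CPM in the control libraries and 89.2, 98.9 and 91.1 CPM in the ATRA libraries. Every ATRA library was far below every control library, a log₂FC of -3.17 (standard error 0.0631, adjusted p = 1.63e-18), or 9.0-fold lower. CTSS, a cathepsin best known in antigen-presenting cells, had 16.1, 15.6 and 12.9 CPM without ATRA and 1.55, 1.68 and 1.84 with it. The groups were again far apart, with a log₂FC of -3.14 (standard error 0.137). CTSK and CTSS follow each other in the gene order of the goat reference table (assembly ARS1.2). CTSO had a log₂FC of -2.90 (standard error 0.227), from 3.86 ± 0.434 to 0.514 ± 0.0781 CPM (SD, n = 3 each).

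CTSH, an aminopeptidase, had 163, 150.0 and 153 CPM in the control group and 61.1, 55.0 and 61.3 CPM with ATRA. The ATRA values all lay far below the lowest control value (log₂FC -1.39, standard error 0.0630). CTSC, which activates granule serine proteases by trimming their ends, fell with a log₂FC of -1.33 (standard error 0.0565). CTSA, the carboxypeptidase that also protects GLB1 and NEU1 in a shared complex, fell with a log₂FC of -1.22 (standard error 0.0703).

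LGMN, the asparagine-specific protease legumain that processes other cathepsins, had 33.7, 36.9 and 31.5 CPM in the control libraries and 62.5, 65.7 and 64.8 CPM in the ATRA libraries. It was the member of this class with the largest rise, a log₂FC of 0.92 (standard error 0.0710, adjusted p = 9.54e-10). CTSD, the main aspartic protease of lysosomes, had 372, 344 and 339 CPM without ATRA and 484, 437 and 470.4 CPM with it, and the groups did not overlap (log₂FC 0.40, standard error 0.0604). CTSF rose from 80.0 ± 6.57 to 116 ± 4.46 CPM (SD, n = 3 each, log₂FC 0.54). The tripeptidase TPP1 rose by less, with a log₂FC of 0.28 (standard error 0.0622).

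The gene listed as CTSV carries the ortholog symbol CTSL in the table, and a separate row is listed as CTSL, so reads could be divided between these related genes. CTSV had 74.97, 84.6 and 77.2 CPM in the control libraries and 113, 106 and 118 CPM in the ATRA libraries, all higher with ATRA (log₂FC 0.51, standard error 0.0640). CTSL had 5.70, 5.22 and 5.23 CPM and 4.46, 4.40 and 4.21 CPM, a log₂FC of -0.31 that turned to 0.17 with library size only. Its adjusted p of 0.0415 rose above 0.05 when any of the 6 libraries was left out (0.0502 to 0.123).

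CTSB, a cysteine protease that took the most reads of the class in both groups, had 1258, 1188 and 1171 CPM in the control libraries and 1113, 1079 and 1111 CPM in the ATRA libraries. The groups were apart by little, and the log₂FC of -0.13 (adjusted p = 0.0404) turned to 0.35 with library size only. The call was lost without Control replicate 1 (adjusted p = 0.156) and without ATRA replicate 3 (adjusted p = 0.0634). It was also lost with upper quartile scaling (log₂FC -0.055, adjusted p = 0.375), with the filter of 1 CPM in 3 libraries (adjusted p = 0.0618) and with the t.test function (adjusted p = 0.0537). CTSZ, a carboxypeptidase, overlapped between the groups (log₂FC -0.11, 0.37 with library size only, adjusted p = 0.156).

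**Figure D3:**
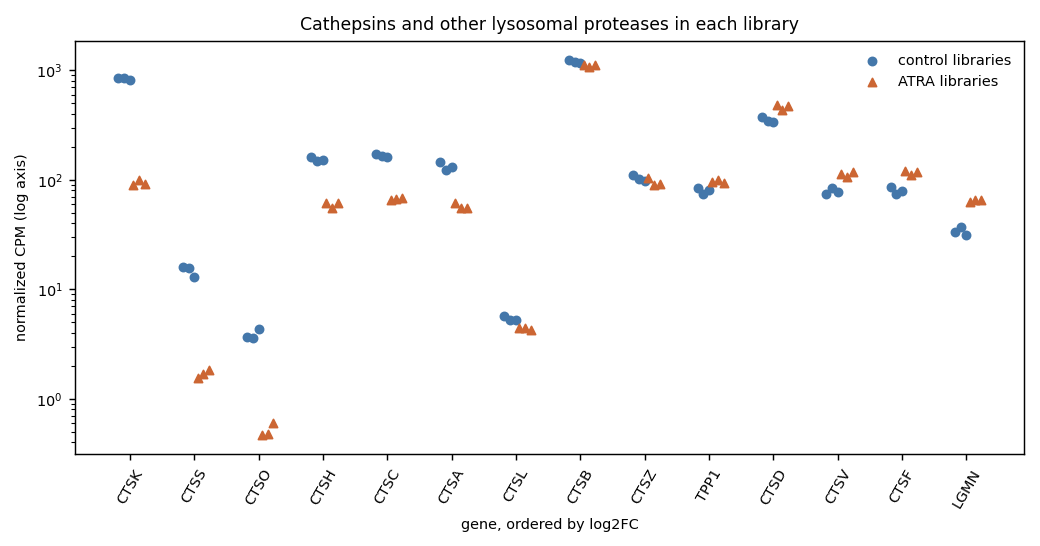
Normalized CPM (vertical log axis) of the 14 tested protease genes in each of the 3 control libraries (circles) and 3 ATRA libraries (triangles), with genes ordered by log₂FC. CTSK runs from 819.7 to 848 CPM in the control libraries and from 89.2 to 98.9 CPM with ATRA, while CTSB and CTSZ lie almost level on this axis, CTSB at -0.13 by TMM and 0.35 with library size only.

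The make-up of the protease counts can be read without any scaling between libraries. CTSK took 25.8% ± 0.671 (SD, n = 3) of the counts on the 16 protease genes without ATRA and 4.0% ± 0.320 with it. The share of CTSD was 10.8% ± 0.191 and 19.9% ± 0.580 in the same order. CTSB took 37.1% ± 0.193 and 47.2% ± 0.337. The libraries of the groups were apart for these 3 genes, and the smallest two-sided p that an exact permutation test of 3 libraries against 3 allows is 0.1. The shares in a library add up to a fixed whole, so the smaller share of CTSK raises the shares of the other genes. CTSB itself had a log₂FC of -0.13 by TMM and 0.35 with library size only. All of these are shares of reads, which longer transcripts raise, and not shares of protein.

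**Figure D4:**
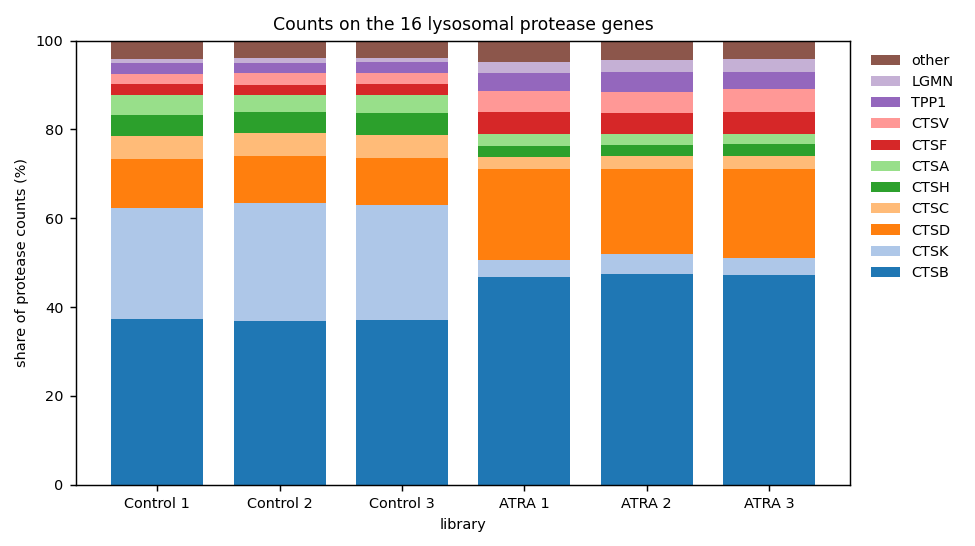
Share of the counts on the 16 protease genes (vertical axis, %, from 0) that each gene took in the 3 control and 3 ATRA libraries, as stacked bars with 6 less counted genes joined as other. The CTSK segment shrinks from 25.8% to 4.0% on average, and the CTSD segment grows from 10.8% to 19.9%, in bars of fixed height where a smaller segment enlarges the others.

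The endosomal and lysosomal glycosidases, which remove sugars one at a time from glycoproteins, glycolipids and glycosaminoglycans, were mostly lower with ATRA. Of 18 genes, 17 were tested, 14 fell, 1 rose and 2 did not pass the test. The median log₂FC was -0.87, and 6 genes fell past 2-fold, 5 without a row that passed the filter through 1 group. With library size only the class counted 10 lower and 4 higher, and its median was -0.39 while that of all genes was 0.52.

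NAGLU, the N-acetylglucosaminidase of heparan sulfate breakdown, had 55.7, 52.4 and 51.2 CPM in the control libraries and 15.0, 13.7 and 14.4 CPM in the ATRA libraries. It fell most in the class, with a log₂FC of -1.89 (standard error 0.0754, adjusted p = 4.62e-14). NAGLU stands next to the proton pump gene ATP6V0A1 in the reference table, and that neighbour had a log₂FC of 0.19 (adjusted p = 0.0136, and 0.0916 without Control replicate 2). MANBA, the beta-mannosidase, had 34.7, 34.3 and 36.2 CPM and 12.7, 15.7 and 14.1 CPM, all lower with ATRA (log₂FC -1.31, standard error 0.0860). IDUA, the iduronidase of dermatan and heparan sulfate, fell with a log₂FC of -1.15 (standard error 0.0666).

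HEXA, the alpha subunit of beta-hexosaminidase, which acts on GM2 ganglioside, had 109, 101 and 97.9 CPM without ATRA and 54.5, 47.6 and 54.6 CPM with it. Every ATRA value was below every control value (log₂FC -0.98, standard error 0.0692).

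GLB1, the beta-galactosidase of lysosomes, had 276, 248 and 254 CPM in the control libraries and 148, 138 and 140.3 CPM in the ATRA libraries. The groups were well apart (log₂FC -0.87, standard error 0.0585). GUSB, the beta-glucuronidase, fell with a log₂FC of -1.02 (standard error 0.0557), and so did the neighbouring row with the same ortholog symbol, at -0.61. That row was not called with library size only (log₂FC -0.14, adjusted p = 0.155). GLA, the alpha-galactosidase that trims globotriaosylceramide, had 12.4, 12.4 and 11.9 CPM and 5.62, 7.59 and 6.57 CPM (log₂FC -0.89, standard error 0.117).

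MAN2B1, the alpha-mannosidase, was the glycosidase that rose, from 167, 158 and 160.3 CPM to 236, 228 and 240.2 CPM (log₂FC 0.54, standard error 0.0537). GAA, the alpha-glucosidase that degrades glycogen, had 55.8, 53.2 and 56.9 CPM and 54.4, 58.4 and 56.6 CPM, which overlapped (log₂FC 0.0284, standard error 0.0636, adjusted p = 0.688, 0.51 and called higher with library size only, -0.0057 without Control replicate 2 and -0.0049 without ATRA replicate 2). The sialidase NEU1 was also not called, with a log₂FC of -0.0498 that was 0.43 with library size only.

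All 8 sulfatase genes, with SUMF1 among them, passed the filter and the test, 6 lower and 2 higher, or 4 lower and 2 higher with library size only. ARSB, which removes sulfate from dermatan and chondroitin sulfate, had 78.1, 72.0 and 81.6 CPM in the control libraries and 35.7, 38.8 and 35.2 CPM in the ATRA libraries. It fell most in the class (log₂FC -1.08, standard error 0.0695). SUMF1, the enzyme that makes the catalytic residue of every sulfatase, had 92.1, 87.5 and 91.9 CPM and 60.8, 53.1 and 60.4 CPM (log₂FC -0.64, standard error 0.0660). ARSA, which desulfates sulfatide, had 109.8, 102 and 101 CPM and 69.6, 62.9 and 68.4 CPM and did not overlap (log₂FC -0.64).

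IDS, the iduronate sulfatase that acts beside IDUA, went the other way, from 146, 138 and 156 CPM to 168, 199 and 169 CPM (log₂FC 0.28, standard error 0.0699). ARSG, another sulfatase of heparan sulfate, had 20.4, 15.6 and 17.5 CPM and 21.1, 21.5 and 22.8 CPM (log₂FC 0.29, adjusted p = 0.00929). Without Control replicate 2 the log₂FC of ARSG was 0.1962 with an adjusted p of 0.0744. The falls of SGSH and GALNS, -0.36 and -0.38, turned to 0.12 and 0.0943 with library size only.

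Grouped by substrate, the members that the table also annotates to glycosaminoglycan degradation were 12 lower and 2 higher of 14 tested, with a median log₂FC of -0.92. The higher ones were IDS and HGSNAT, the acetyltransferase that works in the lysosome membrane on the step before NAGLU, which rose from 56.0 ± 1.52 to 107 ± 3.81 CPM (SD, n = 3 each, log₂FC 0.94, standard error 0.0599). With library size only this group counted 9 lower and 2 higher. Of the 8 members also annotated to sphingolipid metabolism, 7 fell and NEU1 was not called, with a median of -0.61, and with library size only 4 were lower and 1 higher. Both groups share GLB1, and the first 14 include both copies of GUSB. For all genes the share called lower was 38.7% by TMM and 22.7% with library size only.

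The lipase and activator class held GM2A, with the lowest log₂FC of the 51 tested hydrolases and activators, and falls of LIPA and PLA2G15. Of 13 genes in this class, 12 were tested, 8 fell, 3 rose and ACP2 was not called, and the median log₂FC was -0.70. Library size alone gave 6 lower and 5 higher, with a median of -0.22. ACP5, the tartrate-resistant phosphatase, had 8 counts or fewer in every library and was not tested.

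GM2A, the activator that presents GM2 ganglioside to beta-hexosaminidase, had 471, 469 and 448 CPM in the control libraries and 43.8, 43.2 and 45.7 CPM in the ATRA libraries. It was 10.5-fold lower with ATRA, a log₂FC of -3.39 (standard error 0.0595, adjusted p = 3.19e-19). LIPA, the acid lipase that frees cholesterol from its esters, had 412, 419 and 394 CPM without ATRA and 66.8, 74.3 and 66.0 CPM with it. Its groups were as clearly apart (log₂FC -2.56, standard error 0.0624). PLA2G15, a lysosomal phospholipase, had 9.05, 8.75 and 8.47 CPM and 1.97, 1.61 and 1.74 CPM (log₂FC -2.30, standard error 0.143).

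ASAH1, the acid ceramidase, had 115, 115 and 99.3 CPM in the control libraries and 35.7, 32.1 and 33.7 CPM in the ATRA libraries, with every ATRA value lower (log₂FC -1.70, standard error 0.0722). PPT1, which removes palmitate from proteins, fell by 3.50-fold, at a log₂FC of -1.81 (standard error 0.0575). Its relative PPT2 had 9.73, 10.1 and 10.7 CPM and 24.7, 25.3 and 23.8 CPM and rose (log₂FC 1.27, standard error 0.0856). The sphingomyelinase SMPD1 fell with a log₂FC of -0.58, but was not called with library size only (log₂FC -0.11, adjusted p = 0.113).

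PSAP, the precursor of the saposins that lift sphingolipids toward their hydrolases, had 2274, 2286 and 2199 CPM in the control libraries and 1986, 1899 and 2096 CPM in the ATRA libraries. The groups were apart but close, and the log₂FC of -0.18 (adjusted p = 0.0105) turned to 0.30 with library size only. PSAP was not called with upper quartile scaling (log₂FC -0.10, adjusted p = 0.122) or with the t.test function (adjusted p = 0.0509). NPC2, the soluble sterol carrier that hands cholesterol to NPC1, had 294, 316 and 272 CPM and 478, 453 and 493 CPM, all higher with ATRA (log₂FC 0.69, standard error 0.0631). DNASE2, the acid nuclease, had 41.2, 35.7 and 35.9 CPM and 46.7, 46.7 and 46.7 CPM (log₂FC 0.31, standard error 0.0721).

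In the lysosomal membrane LAMP1, LAMP2 and CD63 did not pass the test by TMM but were called higher with library size only, while ENTPD4, the channel MCOLN1 and the cholesterol exporter NPC1 rose. Of 25 genes, 24 were tested, 10 rose, 6 fell and 8 were not called, with a median log₂FC of 0.11. Of these, 7 rises and 2 falls were past 2-fold, or 5 and 0 without the 4 genes that passed the filter through 1 group. SLC11A1 had 3 counts or fewer in every library and was not tested. With library size only the class counted 21 higher and 1 lower, beside 62.9% of all genes higher.

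LAMP1 and LAMP2 are the most abundant glycoproteins of the lysosome membrane and are used to define it. LAMP1 had 429, 392 and 401 CPM in the control libraries and 388, 363 and 388 CPM in the ATRA libraries, close but lower with ATRA, at a log₂FC of -0.10 (adjusted p = 0.118, and 0.38 with library size only). LAMP2 had 286, 304 and 283 CPM and 291, 306 and 282 CPM, which overlapped (log₂FC 0.00950, -0.0109 with RLE scaling and 0.49 with library size only, adjusted p = 0.882). CD63, a tetraspanin of late endosomes, had 796, 786 and 714 CPM and 839.5, 722 and 823 CPM and also overlapped (log₂FC 0.0548, 0.53 with library size only, adjusted p = 0.456 by TMM). SCARB2, a membrane protein of late endosomes and lysosomes, had 359, 357 and 365 CPM and 281, 293 and 280.2 CPM and was lower by TMM (log₂FC -0.34) but 0.14 with library size only.

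ENTPD4, a nucleoside diphosphatase of the Golgi and lysosome membrane, had 71.8, 71.1 and 76.0 CPM in the control libraries and 278, 278 and 278 CPM in the ATRA libraries. It was 3.81-fold higher with ATRA (log₂FC 1.93, standard error 0.0558, adjusted p = 3.64e-16). MCOLN1, the calcium channel of the lysosome membrane, had 15.3, 13.9 and 14.8 CPM without ATRA and 54.9, 49.2 and 48.8 CPM with it. Its groups were wide apart (log₂FC 1.80, standard error 0.0793, adjusted p = 2.11e-13). NPC1, the membrane protein that exports cholesterol, had 45.8, 46.7 and 53.2 CPM and 132, 149 and 141 CPM, all higher with ATRA (log₂FC 1.53, standard error 0.0703). A second row with the ortholog symbol NPC1 had under 2 CPM in the mean of either group and was not called (log₂FC 0.73, adjusted p = 0.0641), and reads could be divided between the rows.

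The row with the ortholog symbol SLC11A2, an iron transporter, rose with a log₂FC of 1.38 (standard error 0.0883). CLN3 and MFSD8, membrane proteins mutated in forms of neuronal ceroid lipofuscinosis, rose with log₂FC of 0.69 and 0.65. LAPTM4A had 751, 817 and 732 CPM and 598, 595 and 614 CPM, lower by TMM (log₂FC -0.35) and 0.13 with library size only. The cystine exporter CTNS had 7.47, 6.52 and 6.94 CPM and 5.62, 6.26 and 4.93 CPM, a log₂FC of -0.32 by TMM and 0.16 with library size only. Its adjusted p of 0.0323 rose above 0.05 without Control replicate 1, Control replicate 3, ATRA replicate 1 or ATRA replicate 3 (0.0572 to 0.126).

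The members of this class with few counts that passed the filter through 1 group had to differ, and their values are given as a description. LAPTM4B and ABCB9 passed it through their ATRA libraries, with fitted log₂FC of 2.44 and 2.01. LAMP3, a membrane protein of maturing dendritic cells, passed it through the control libraries, with 26, 16 and 26 counts there and 0 counts in every ATRA library. Against a floor of 3 counts per library it was at least 10.2-fold lower with ATRA. LAPTM5, a membrane protein of blood cells, also passed through the control libraries (log₂FC -1.33, standard error 0.426).

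CD68, a scavenger receptor much used to mark macrophages, had 5.67, 2.60 and 4.14 CPM in the control libraries and 11.8, 10.6 and 10.6 CPM in the ATRA libraries. The control libraries varied, but all ATRA libraries lay above them (log₂FC 1.41, standard error 0.183, adjusted p = 2.18e-06). A list of 9 macrophage and leukocyte markers had 7 genes in the table, whose summed level was 6.80 to 9.53 CPM in the control libraries and 31.7 to 33.2 CPM with ATRA. CD14 made up most of it and rose with a log₂FC of 2.18, while TYROBP and AIF1 were at 0 in every control library and CSF1R was near 0 in both groups. Their part in the values of CD68, CTSS, LAPTM5 and LAMP3 was not tested. The 5 endothelial markers summed to between 0.903 and 1.24 CPM in the control libraries and between 6.19 and 9.16 CPM with ATRA, nearly all of it PECAM1, which was at 0 in the control libraries and at 5.60, 7.71 and 4.98 CPM with ATRA, while CDH5 was at 0 or 1 count throughout. Its part in the lysosome values was not tested.

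The proton pump genes annotated to the lysosome are most of the membrane sector V0, the regulatory subunit ATP6V1H, and the accessory subunit ATP6AP1. Of 11 genes, 10 were tested, 6 rose, 2 fell and 2 were not called, with a median log₂FC of 0.18. ATP6V0A4, a kidney-type subunit, had 7 counts or fewer in every library and was not tested. Changes were small in most members, and 1 rise and 1 fall were past 2-fold. The fall was that of ATP6V0D2, with 24, 20 and 23 counts in the control libraries and 10, 19 and 15 with ATRA. ATP6V0D2 was not called without ATRA replicate 1 (adjusted p = 0.0597) or with library size only (adjusted p = 0.144). With library size only, 8 were higher and 0 lower.

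ATP6V0B and ATP6V0C encode subunits of the rotating proteolipid ring. ATP6V0B had 44.6, 45.6 and 44.4 CPM in the control libraries and 105, 90.7 and 109 CPM in the ATRA libraries, 2.26-fold higher (log₂FC 1.18, standard error 0.0711, adjusted p = 2.41e-11). ATP6V0C had 116, 103 and 103 CPM and 184, 154 and 169 CPM, and the groups did not overlap (log₂FC 0.66, standard error 0.0695). ATP6AP1 rose as well, although another row carries the same ortholog symbol and reads could be divided, from 74.2, 68.0 and 71.0 CPM to 94.4, 87.5 and 88.9 CPM (log₂FC 0.35).

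ATP6V0D1, the subunit that couples the ring to the catalytic sector, had 236, 203 and 214 CPM in the control libraries and 161, 149 and 148 CPM in the ATRA libraries. All ATRA values were lower, with a log₂FC of -0.51 (standard error 0.0627) that shrank to -0.0319 with library size only. TCIRG1, the a3 subunit used by osteoclasts, had 38.3, 32.1 and 33.9 CPM and 40.6, 39.4 and 37.6 CPM, which overlapped. Its log₂FC of 0.17 had an adjusted p of 0.0472, which rose to between 0.055 and 0.22 without Control replicate 2, Control replicate 3, ATRA replicate 1 or ATRA replicate 3, to 0.0764 with RLE scaling, to 0.0621 without the filter and to 0.1 with DESeq2.

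The other subunits of the catalytic sector V1, the small V0 subunits ATP6V0E1 and ATP6V0E2, and other accessory subunits carry no lysosome name in the table. Of the 14 listed, 12 were tested, 4 rose and 6 fell, and the median log₂FC was -0.13. Together with the pump genes annotated to the lysosome, 22 were tested. Of these 10 rose and 8 fell by TMM, but 16 were higher and 3 lower with library size only. Of the 12 tested, ATP6V1C1 was highest at 0.55 and ATP6V1G2, a brain-type subunit, lowest at -3.59. ATP6V1G2 had 25, 33 and 35 counts in the control libraries and 2, 5 and 3 with ATRA. It passed the filter through the control libraries and had to differ, so its value is a description. ATP6AP2, the prorenin receptor that helps assemble the pump, fell from 236 ± 7.24 to 112 ± 6.85 CPM (SD, n = 3 each, log₂FC -1.07, standard error 0.0590). ATP6V1A and ATP6V1B2, which form the catalytic head, had log₂FC of -0.23 (adjusted p = 0.00439) and 0.00570 (adjusted p = 0.928). These values of single genes are by TMM, and library size only shifts all genes upward.

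The sorting genes divided into those that rose and those that fell, mostly by less than 2-fold. Of 30 genes, 28 were tested, 14 rose, 12 fell and 2 were not called, at a median log₂FC of 0.0857. Library size alone gave 17 higher and 5 lower, with a median of 0.56, where 62.9% of all genes were higher. Past 2-fold there were 1 fall and 0 rises. AP3B2 and AP3M2 had 5 counts or fewer in every library and were not tested.

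GNPTAB, the catalytic subunit of the phosphotransferase that makes the mannose 6-phosphate mark, had 106, 108 and 117 CPM in the control libraries and 28.2, 31.4 and 29.4 CPM in the ATRA libraries. It was 3.73-fold lower with ATRA (log₂FC -1.90, standard error 0.0677, adjusted p = 8.23e-15). GNPTG, the gamma subunit of the same enzyme, rose from 49.3 ± 1.86 to 62.8 ± 6.43 CPM (SD, n = 3 each, log₂FC 0.35, standard error 0.0754). NAGPA, which uncovers the mark, also rose (log₂FC 0.34, standard error 0.0950).

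The receptors that read the mark, and sortilin, were called higher by less than 2-fold. M6PR, the small mannose 6-phosphate receptor, had 126, 132 and 120.2 CPM without ATRA and 139, 139 and 144 CPM with it, a log₂FC of 0.16 (adjusted p = 0.0137) that did not pass without Control replicate 3 (adjusted p = 0.101) or ATRA replicate 3 (adjusted p = 0.0807). IGF2R, the large receptor that also clears IGF2, had 198, 206 and 214 CPM and 222, 245 and 234 CPM (log₂FC 0.18, adjusted p = 0.00683, and 0.0507 without Control replicate 1). SORT1, which carries hydrolases and PSAP without the mark, had 34.7, 35.1 and 36.5 CPM and 51.5, 54.8 and 49.8 CPM, all higher with ATRA (log₂FC 0.55, standard error 0.0680).

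Of the coats, the GGA genes rose, and 6 of 7 AP-1 genes fell. With library size only AP1G1 turned higher, and AP1M1 (log₂FC -0.13, adjusted p = 0.0944) and AP1S3 (adjusted p = 0.314) were not called. AP1S3 also lost its call without Control replicate 1 or 3 or ATRA replicate 1 or 3 (adjusted p up to 0.207). GGA1 had 30.7, 24.8 and 28.7 CPM in the control libraries and 51.7, 53.1 and 52.0 CPM in the ATRA libraries (log₂FC 0.90, standard error 0.0785), and GGA3 and GGA2 rose with log₂FC of 0.51 and 0.22. Within AP-1, the sigma subunit AP1S1 had 93.5, 92.7 and 80.8 CPM and 50.4, 47.7 and 51.1 CPM and fell (log₂FC -0.84, standard error 0.0685). AP1G2, an alternative gamma subunit, had 10.5, 10.7 and 11.8 CPM and 7.03, 4.85 and 6.21 CPM and fell (log₂FC -0.86). AP1S2, another sigma subunit, rose from 157 ± 4.76 to 215 ± 15.8 CPM (SD, n = 3 each, log₂FC 0.45). AP1G1, the main gamma subunit, had 141, 149 and 150.0 CPM and 119, 123 and 116 CPM, lower by TMM (log₂FC -0.30) and 0.18 with library size only.

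In AP-3, which serves lysosomal membrane proteins, subunits moved in both directions. AP3M1 had 100.5, 106 and 105 CPM without ATRA and 169, 171 and 165 CPM with it (log₂FC 0.69, standard error 0.0549). AP3D1 had 241, 219 and 242 CPM and 295, 307 and 314 CPM and rose (log₂FC 0.39), while AP3B1 fell (log₂FC -0.54, standard error 0.0570). With library size only AP3B1 was not called (log₂FC -0.0569, adjusted p = 0.36). AP4E1, of the AP-4 coat, had 10.3, 9.98 and 14.0 CPM and 13.9, 20.7 and 16.1 CPM, which overlapped although the test called it higher (log₂FC 0.57, adjusted p = 0.00217). CLTC, the clathrin heavy chain, had 714, 727 and 723 CPM and 524, 589 and 547 CPM, lower by TMM (log₂FC -0.38) and 0.10 with library size only.

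**Figure D5:**
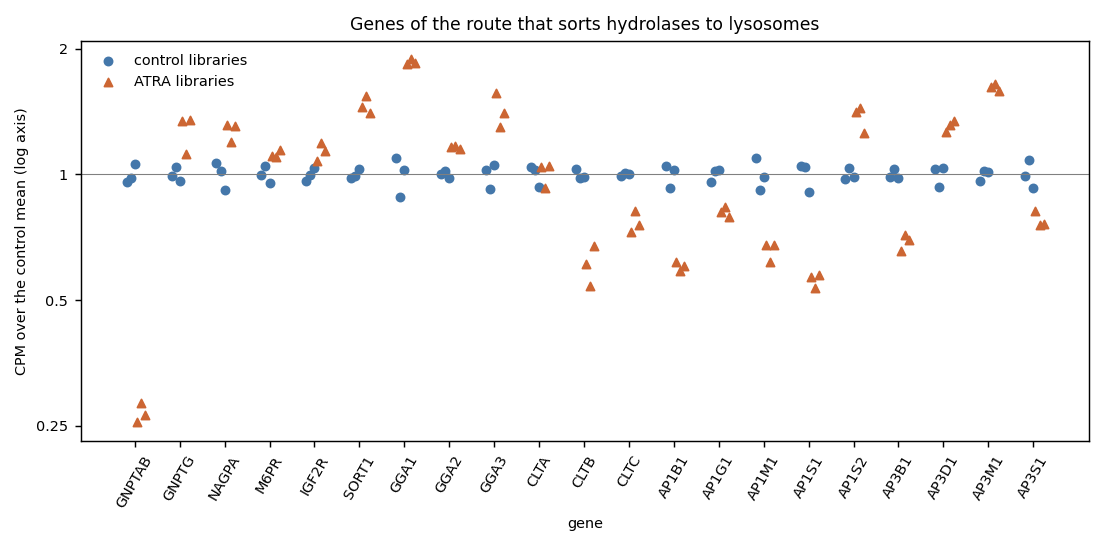
CPM of 21 sorting genes in each library divided by the gene's control mean (vertical log axis), for 3 control libraries (circles) and 3 ATRA libraries (triangles). GNPTAB lies lowest, the GGA genes and SORT1 lie above 1, and AP1B1, AP1M1 and AP1S1 lie below it, with CLTC, AP1G1 and AP3S1 just below a level that library size only would move above 1.

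Of the transcription factors that control lysosome genes, MITF had 12.3, 13.7 and 13.2 CPM in the control libraries and 31.6, 36.8 and 29.8 CPM in the ATRA libraries. All ATRA values were higher (log₂FC 1.33, standard error 0.0921, adjusted p = 1.99e-10). TFE3 rose from 95.9 ± 3.98 to 123 ± 1.57 CPM (SD, n = 3 each, log₂FC 0.36). TFEB had 10.8, 9.64 and 10.9 CPM and 11.9, 10.4 and 10.3 CPM, which overlapped (log₂FC 0.0582, adjusted p = 0.615). The wider list of 20 listed genes of lysosome control, with the Rag GTPases and the Ragulator scaffold that hold mTORC1 at the lysosome, had 19 tested, 7 higher and 8 lower, with a median log₂FC of -0.0704. Its lowest member was the Ragulator gene LAMTOR4 at -1.62 (standard error 0.0945). The values and counts of genes in this paragraph are by TMM, and library size only would shift the values upward, as it does all genes. Counts under that scaling are not given for this list. Counts of reads measure transcripts and not where these factors reside in the cell.

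As a share of all counts, which is scaling by library size only, the 121 genes took 1.35% ± 0.0213 (SD, n = 3) without ATRA and 1.59% ± 0.0069 with it. By TMM the direction turned, and their summed level was 15941 ± 304 CPM without ATRA and 13464 ± 152 CPM with it. Within the members' counts, where the scaling cancels, the membrane proteins grew from 21.2% ± 0.405 to 26.2% ± 0.321 and the proton pump from 4.02% ± 0.169 to 5.42% ± 0.165. The proteases shrank from 20.4% ± 0.350 to 17.3% ± 0.241, the glycosidases from 7.45% ± 0.193 to 6.04% ± 0.0572, and the lipase class from 24.9% ± 0.386 to 21.3% ± 0.654. The sorting genes grew from 18.3% ± 0.337 to 20.3% ± 0.465, although their summed level by TMM was 2914 ± 2.37 CPM without ATRA and 2735 ± 34.3 CPM with it. The sulfatases overlapped, at 3.73% ± 0.184 and 3.46% ± 0.186. In the other 6 classes the ATRA libraries were apart from the control libraries, and an exact permutation test of 3 against 3 cannot give a p below 0.1. A few genes with many counts, PSAP and CTSB among them, weigh most in these shares. Of the protease counts, CTSK took 25.8% without ATRA and 4.0% with it, and CTSB 37.1% and 47.2%. Of the lipase class counts, GM2A took 11.7% and 1.545%, LIPA 10.3% and 2.42%, and PSAP 56.8% and 69.6%. The smaller share of a class is therefore not a fall of each of its genes. Since the shares add up to a whole, a fall of some classes raises the others.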

How the data were processed

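RNA-seq of SHF-DPCs was analysed from the table that the authors deposited, whose values are raw counts of reads per gene, made by the authors with alignment and counting and not normalized. The paper names fastp and TrimGalore for cleaning. The submitters' processing notes name HISAT2, featureCounts and DESeq2, with no version. The genome build, strand setting and handling of reads shared between similar genes are not given in the sources used here. Names of 121 members were found in a reference table of assembly ARS1.2, which served only for names and for the order of genes, since the build of the files is not known.

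Low counts were removed by filterByExpr of edgeR, grouped by condition, and the rest scaled by TMM, and tested with the robust quasi-likelihood test on all 6 libraries without covariates. Standard errors were obtained by dividing the size of the log₂FC by √F. Normalized CPM uses the library total over tested genes times the TMM factor. With 1 count worth 0.0227 to 0.0322 CPM, p-values reflect the spread between 3 libraries per group. The labels set no batches apart. The paper names R's t.test function, which served here as an alternative to the count model. Libraries with the same number in their titles had correlations of deviations of 0.1893, -0.0066 and -0.1586, and those with unlike numbers -0.2415 to 0.2463. With 3 libraries per group this cannot tell whether same-numbered libraries share an animal.

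Members, classes and lists were chosen with earlier results of these data known. Alternatives were RLE, upper quartile and library size scaling, no filter or 1 CPM in 3 libraries, DESeq2, a replicate block and each library left out. Per-library values are given for up to 3 genes per class and direction with the largest log₂FC, an adjusted p under 0.05 and a mean of at least 5 CPM, and for class-defining genes. Some members enter the counts and medians but are not reported here by name. Genes outside this rule were named after their values were seen. A floor is 3 counts per library, for counting error only. The tests were also run on simulated counts in which few genes were changed, as many up as down. That setting lacks the shift between scalings seen here and does not bear on it. Of the lists of cell type markers, melanocyte genes summed to between 3.80 and 4.30 CPM in control libraries and between 1.97 and 2.34 CPM in ATRA libraries. Of the cathepsin inhibitors listed, CST6 was tested (log₂FC 1.74), with 4, 11 and 4 counts in the control libraries and 20, 29 and 37 with ATRA. It passed the filter through the ATRA libraries, so its value is a description. Tools were Python 3.11.15 with pandas 2.3.3 and matplotlib 3.10.9, and DESeq2 1.42.0, limma 3.58.1 and edgeR 4.0.16 under R 4.3.3.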

Additional observations from a re-analysis of the deposited data

How the results depend on the processing

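Library size only in place of TMM gave 64 members higher and 32 lower, 23 higher and 12 lower past 2-fold, and a median log₂FC of 0.35. Other settings kept each of these 4 counts within 1.5 times, and the median was -0.055 with upper quartile scaling and -0.0917 with the filter of 1 CPM in 3 libraries, a larger move than the SD of 0.0342 between libraries. Leaving out each library in turn gave 37 to 41 members higher, 50 to 56 lower, 9 to 11 higher and 21 to 23 lower past 2-fold, and a median of -0.16 to -0.12. Whether libraries with the same number in their titles share an animal is not stated. With the replicate number as a block, 41 members were higher and 54 lower, 9 and 22 past 2-fold, with a median of -0.13, and CTSL was no longer called (adjusted p = 0.0615). Over 58 genes and 870 values under alternatives, 806 kept direction and side of the threshold, 42 lost the call, 3 gained it, 2 without a test moved, and 17 changed sign. With library size only the log₂FC turned to 0.18 for AP1G1, 0.0964 for CLTC, 0.16 for CTNS, 0.35 for CTSB, 0.17 for CTSL, 0.38 for LAMP1, 0.13 for LAPTM4A, 0.30 for PSAP and 0.14 for SCARB2, which follows from the shift of all genes. LAMP2, near 0, was -0.0109 with RLE, -0.0024 without a filter, -0.0123 with DESeq2, and from -0.0312 to 0.0362 when each library was left out. GAA ranged from -0.0057 to 0.0494 in the same way. The alternative for promoter motifs was not run, because no promoter sequence was used here. Depth limits the members with few counts, such as LAMP3, LAPTM4B, LAPTM5 and ABCB9.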
